A study of Mus musculus with 6 samples.

Results

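The hair and inner root sheath keratins are 10 genes, *Krt25*, *Krt27*, *Krt28*, *Krt31*, *Krt32*, *Krt34*, *Krt36*, *Krt71*, *Krt75* and *Krt79*. They were chosen by name, and each had 1 row among the 24982 genes listed for every library. Gene expression was measured by poly(A) RNA-seq in 2 keratinocyte lines, both from C57BL/6 neonatal skin and both untreated. The KSFM-Ca2+ cells were derived and kept in a low-calcium medium, and the study describes such lines as tetraploid or hyperdiploid. The DKSFM cells descend from KSFM-Ca2+ cells that survived a transfer to DKSFM, a defined medium with more calcium, so that the medium and the adaptation of the cells cannot be told apart. There were 3 libraries of each line, and the labels do not say whether replicates were separate cultures, so that p-values measure the spread between these samples, which may be technical.

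The listed value of a gene is its mean read coverage per base, written to 1 decimal and not scaled to library size. Summed over genes it came to 1601676, 1238411 and 1057750 in KSFM-Ca2+ replicates 1 to 3 and to 1174348, 1239438 and 1170675 in DKSFM replicates 1 to 3. Between 13748 and 14140 genes were above 0 in a library, and 8901 of the 24982 genes were listed at 0 in all 6. Listed coverage is given below as deposited. Normalized coverage is the same value after scaling between libraries, with its mean ± SD (n = 3 libraries). Since coverage is counted per base, levels can be compared between genes. The smallest step that could be seen was 0.1, which stood for about 1.82 reads of *Krt27* and about 3.84 reads of *Krt75*, the shortest and the longest of the transcripts.

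Keratins form the intermediate filaments of epithelial cells from pairs of a type I and a type II chain, and each layer of the skin and of the hair follicle has its own pairs. In the growing follicle, hair keratins fill the shaft, a separate group of keratins builds the inner root sheath that moulds the shaft, and the companion layer and the upper follicle have keratins of their own. The epidermis between follicles is known for other pairs, above all *Krt5* with *Krt14* in its basal layer.

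The labelled cell type was checked against marker genes. The normalized coverage of *Krt14* was 11987 ± 187 for the KSFM-Ca2+ cells and 29688 ± 1515 for the DKSFM cells, and *Krt5* had 4689 ± 41.9 and 11136 ± 791. The regulator of stratified epithelium *Trp63* stood at 405 ± 13.1 and 443 ± 12.6. All 8 keratinocyte markers were tested, none was listed under 182.2 in any library, 3 were higher in the DKSFM cells past the threshold described below and 0 were lower (1 at an unadjusted p under 0.05), so that both lines carried the markers of their label.

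Of the 10 hair and inner root sheath keratins, 3 were listed at 0 in all 6 libraries, namely *Krt25*, *Krt27* and *Krt28*. A further 3, *Krt31*, *Krt34* and *Krt79*, were listed at 0 in every KSFM-Ca2+ library and above 0 in at least 1 DKSFM library. No member was listed at 0 in every DKSFM library and above 0 in the KSFM-Ca2+ cells. In 5 members (*Krt31*, *Krt32*, *Krt36*, *Krt75* and *Krt79*) all 3 DKSFM libraries lay above all 3 KSFM-Ca2+ libraries, a pattern found in 22.6% of all listed genes. In bulk RNA, fewer cells of a type and less RNA per cell cannot be told apart, and this holds for every level given here.

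**Figure D1:**
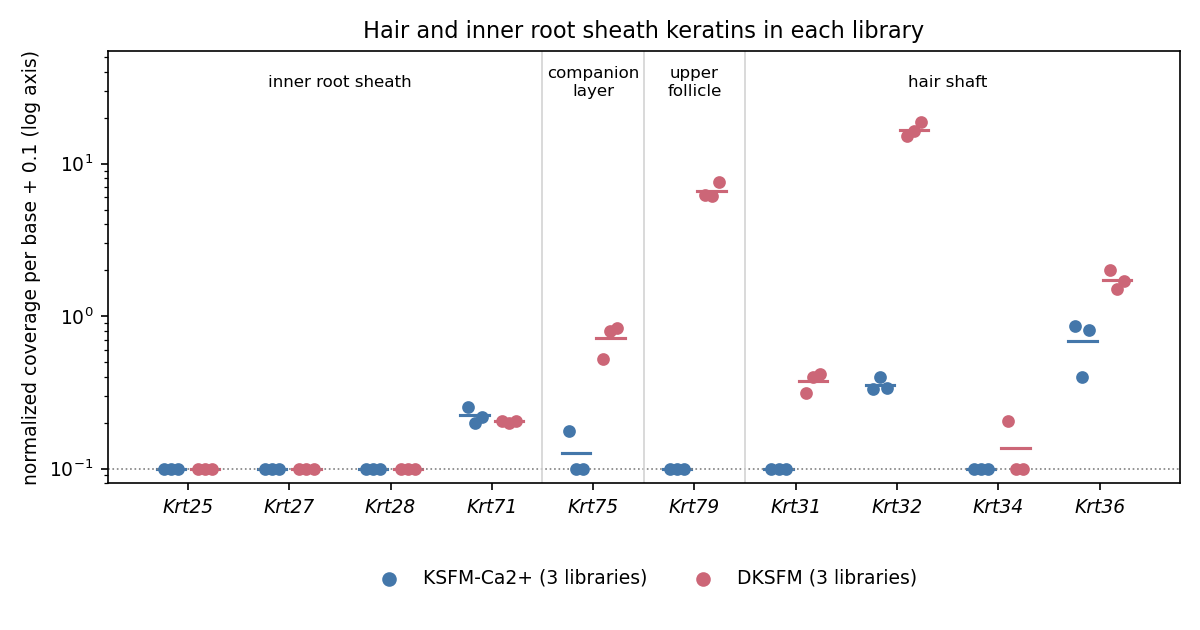
Normalized coverage per base plus 0.1, on a log axis, of the 10 hair and inner root sheath keratins in 3 KSFM-Ca2+ libraries (blue) and 3 DKSFM libraries (red); points are libraries, short lines are means, and the dotted line is a listed value of 0. *Krt25*, *Krt27* and *Krt28* lie on that line in all 6 libraries, whereas *Krt32* and *Krt79* are the highest in the DKSFM cells, at means of 16.6 and 6.55.

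Only 3 of the 10 members, *Krt32*, *Krt36* and *Krt79*, passed the filter for testing, which asks for 3 libraries or more at a normalized coverage of 0.5 or more. *Krt32* and *Krt79* passed it through the DKSFM libraries alone, so that they had to differ, and their number supports nothing by itself. *Krt36* reached the level in 5 of the 6 libraries. In limma's test over 12409 genes, where a call needs both an adjusted p under 0.01 and a 2-fold change, all 3 tested members were higher in the DKSFM cells, where 13.2% of all tested genes were. None of the 3 was lower, where 10.6% of all tested genes were, and none was lower at an unadjusted p under 0.05 either (0 genes). The other 7 members are given by their listed values.

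The inner root sheath keratins include the type I chains *Krt25*, *Krt27* and *Krt28* and the type II chain *Krt71*, which pairs with them in the layers of the sheath. The 3 type I genes lie within 1 stretch of the type I cluster on chromosome 11 (GRCm38), *Krt25* at chr11:99315516-99322951, *Krt27* at chr11:99345565-99351104 and *Krt28* at chr11:99364872-99374903, all on the minus strand. Their listed coverage was 0 in KSFM-Ca2+ replicates 1, 2 and 3 and 0 in DKSFM replicates 1, 2 and 3. At a step of about 2.34, 1.82 and 1.91 reads for *Krt25*, *Krt27* and *Krt28*, a listed 0 may hide about 1 read per library, or at most 2. *Krt26*, the type I inner root sheath gene between *Krt25* and *Krt27*, was also listed at 0 in all 6 libraries, so that all 4 type I genes of the sheath stood at 0.

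*Krt71* (chr15:101733949-101743109) was listed at 0.2, 0.1 and 0.1 in KSFM-Ca2+ replicates 1 to 3 and at 0.1 in each DKSFM replicate. The values of the 2 lines overlapped, and every one of them was at the rounding step or 1 step above it. Without the filter its log2 difference was -0.12 (SE 0.24, limma adjusted p = 0.661). Of the other type II genes of the sheath, *Krt72* was listed at 0 throughout, *Krt73* reached 0.1 in DKSFM replicate 3 alone, and *Krt74* was listed at 0.1, 0.2 and 0.1 in the KSFM-Ca2+ replicates and 0.3, 0.2 and 0.2 in the DKSFM replicates. Summed over these 4 type II genes, normalized coverage was 0.254 ± 0.0368 in the KSFM-Ca2+ cells and 0.382 ± 0.0718 in the DKSFM cells. Both lines thus held the inner root sheath keratins at 0 or within a few steps of it.

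The hair shaft keratins among the members are the type I chains *Krt31*, *Krt32*, *Krt34* and *Krt36*, which lie next to each other in the type I cluster with only *Krt35* between them. *Krt32*, a keratin of the hair cuticle (chr11:100080848-100088226), was listed at 0.3, 0.3 and 0.2 in KSFM-Ca2+ replicates 1 to 3 and at 14.1, 16.3 and 17.6 in DKSFM replicates 1 to 3. All 3 DKSFM libraries were far above all KSFM-Ca2+ libraries, and within each line the libraries stayed close together. Normalized coverage was 0.254 ± 0.0368 in the KSFM-Ca2+ cells and 16.6 ± 1.87 in the DKSFM cells, 65.4-fold higher as a ratio of means, where the KSFM-Ca2+ level is only 2 or 3 steps above 0. On the scale of log2(normalized coverage + 0.1), which understates the change of low genes, the difference was 5.56 (SE 0.14, adjusted p = 1.01e-08). It came to 4.50 with a pseudocount of 0.5 and to 3.81 with a pseudocount of 1.

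*Krt36*, another type I hair keratin (chr11:100102007-100105626), was the only member listed at 0.5 or more in any KSFM-Ca2+ library. Its listed coverage was 1.0, 0.3 and 0.6 in KSFM-Ca2+ replicates 1 to 3 and 1.8, 1.4 and 1.5 in DKSFM replicates 1 to 3. The DKSFM libraries were all higher, without overlap, while KSFM-Ca2+ replicate 2 lay under the other libraries of its line. Normalized coverage was 0.590 ± 0.256 and 1.63 ± 0.258, 2.77-fold higher in the DKSFM cells, with a log2 difference of 1.40 (SE 0.31, adjusted p = 0.00325). This difference was near the threshold and was not past it under several other choices. The adjusted p was 0.0153 without DKSFM replicate 1 and 0.0125 without DKSFM replicate 3. It was 0.0146 after quantile normalization and 0.0181 with only the libraries whose file names carry the word combined (KSFM-Ca2+ replicate 3 and all DKSFM replicates), and the log2 difference was 1.08 in both of these. With 1 KSFM-Ca2+ library, the latter takes that library to vary like the DKSFM libraries. Larger pseudocounts of 0.5 and 1 brought the log2 difference to 0.99 and 0.74, under 2-fold. Without KSFM-Ca2+ replicate 2 it was 1.04 (adjusted p = 0.00252).

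*Krt31*, a keratin of the hair cortex (chr11:100046646-100050551), was listed at 0 in each KSFM-Ca2+ library and at 0.2, 0.3 and 0.3 in DKSFM replicates 1 to 3. The groups did not overlap, but the DKSFM values were only 2 or 3 steps above 0. No fold is given against a line listed at 0. The fit without a filter, in which 12.2% of 16081 genes were higher in the DKSFM cells and 9.28% were lower, placed *Krt31* past the threshold (adjusted p = 0.000257), and its fitted difference depends on the pseudocount. *Krt31* is also uncertain because 16.9% of the read-length windows of its transcript occur in transcripts of *Krt33a*, *Krt33b* or *Krt34* as well.

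*Krt34*, a further cortex keratin (chr11:100037347-100041554), was listed at 0.1 in DKSFM replicate 1 and at 0 in the other 5 libraries. A single step in 1 library separated no group, and the fit without a filter gave an adjusted p of 0.429. For *Krt34* the windows shared with *Krt31*, *Krt33a*, *Krt33b* or *Krt35* made up 21.5%. No such window of *Krt32* or *Krt36* occurred in a transcript of another gene.

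Hair shaft filaments need type II hair keratins as partners of these type I chains. The 7 type II genes (*Krt81* to *Krt87*) were all listed at 0.2 or less. Their summed normalized coverage was 0.0766, 0.395 and 0.236 in KSFM-Ca2+ replicates 1 to 3 and 0.106, 0.0998 and 0 in DKSFM replicates 1 to 3. The 9 type I hair keratins, the 4 members included, summed to 1.46, 1.28 and 1.65 in the KSFM-Ca2+ replicates and 18.0, 18.6 and 21.6 in the DKSFM replicates. The higher type I sum of the DKSFM cells was mostly *Krt32*, and no type II hair keratin was at a like level in the same libraries.

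Promoter sequences are shown for the hair keratins *Krt32* and *Krt31*, which were higher in the DKSFM cells, for *Krt28*, which was listed at 0, and for *Krt79*, which is described below. They are RefSeq promoters of GRCm38.p6, windows of 300 bases that lie mostly before the start site, on the minus strand and written 5′ to 3′, at chr11:100088220-100088519 (*Krt32*), chr11:100050502-100050801 (*Krt31*), chr11:99374854-99375153 (*Krt28*) and chr15:101940275-101940574 (*Krt79*). Capitals mark matches, on either strand, to 4 short motifs chosen with the sequences in view. CTTTGA is the core of the LEF1/TCF site, and TATAAA is the box found close to many start sites. GATAAG is the site of the factors named after its first letters, and TGANTCA is the AP-1 site. No marked match overlaps another.
Krt32: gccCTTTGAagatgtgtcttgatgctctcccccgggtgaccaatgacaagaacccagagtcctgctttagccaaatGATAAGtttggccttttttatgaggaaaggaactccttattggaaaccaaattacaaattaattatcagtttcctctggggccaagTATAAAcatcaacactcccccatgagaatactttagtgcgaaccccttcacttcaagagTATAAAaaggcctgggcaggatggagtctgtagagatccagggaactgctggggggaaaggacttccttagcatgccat
Krt31: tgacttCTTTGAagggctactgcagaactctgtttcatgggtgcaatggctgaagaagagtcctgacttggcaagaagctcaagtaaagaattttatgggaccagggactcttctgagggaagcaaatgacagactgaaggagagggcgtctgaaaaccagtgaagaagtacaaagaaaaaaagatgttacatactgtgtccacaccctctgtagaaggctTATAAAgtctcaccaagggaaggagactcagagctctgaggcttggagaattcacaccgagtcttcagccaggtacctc
Krt28: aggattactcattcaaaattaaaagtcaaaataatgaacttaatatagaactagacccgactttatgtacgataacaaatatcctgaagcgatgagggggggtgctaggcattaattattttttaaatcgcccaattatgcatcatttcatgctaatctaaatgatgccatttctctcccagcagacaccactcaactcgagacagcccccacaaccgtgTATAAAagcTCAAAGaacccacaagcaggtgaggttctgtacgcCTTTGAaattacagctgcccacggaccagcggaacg
Krt79: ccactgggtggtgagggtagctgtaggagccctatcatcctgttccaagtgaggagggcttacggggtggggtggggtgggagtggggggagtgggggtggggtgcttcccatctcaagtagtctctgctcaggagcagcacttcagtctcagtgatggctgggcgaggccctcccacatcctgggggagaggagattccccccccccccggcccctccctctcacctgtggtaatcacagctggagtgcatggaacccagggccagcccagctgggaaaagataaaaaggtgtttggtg

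*Krt32* had a CTTTGA match 247 bases before the start site, a GATAAG match at 174 bases and TATAAA matches at 88 and 29 bases. *Krt31* had CTTTGA at 244 bases and TATAAA at 29 bases before the start, and *Krt34* had CTTTGA at 240 and 133 bases and TATAAA at 31 bases. The 3 neighbouring hair keratin promoters thus held both motifs at nearly the same distances, although *Krt34* was at or near 0. *Krt28*, listed at 0, also held both, with CTTTGA on either side of the start site and TATAAA at 30 bases before it. Over all 10 members CTTTGA was found in 4 promoters and TATAAA in 7, against 16.0% and 13.6% of 32851 promoters of the same length. GATAAG was found in 2 member promoters (*Krt32* and *Krt71*), against 7.44% of all, and TGANTCA in 0, against 7.81% of all. *Krt36*, *Krt75* and *Krt79* held none of the 4 motifs, which says only that these letters are not in this window. TATAAA was in *Krt32*, the highest member in the DKSFM cells, and in the low *Krt31*, *Krt71*, *Krt34*, *Krt25*, *Krt27* and *Krt28*. The members without a match, *Krt79*, *Krt36* and *Krt75*, came between *Krt32* and these in level. Whether a motif goes with the level of a member was not tested.

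*Krt75*, the type II keratin of the companion layer between the inner and outer root sheaths (chr15:101563345-101573904), was listed at 0.1, 0 and 0 in KSFM-Ca2+ replicates 1 to 3 and at 0.4, 0.7 and 0.7 in DKSFM replicates 1 to 3. Each DKSFM library was above each KSFM-Ca2+ library. Normalized coverage in the DKSFM cells was 0.621 ± 0.172, and DKSFM replicate 1 (0.424) kept the gene under the filter. Without a filter the log2 difference was 2.55 (SE 0.33, adjusted p = 0.000233).

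*Krt79* marks cells of the upper follicle, the funnel through which the hair leaves the skin (chr15:101929332-101940324). It was listed at 0 in all 3 KSFM-Ca2+ libraries and at 5.8, 6.0 and 7.1 in DKSFM replicates 1 to 3. The lines were fully apart, with no coverage listed in one and a narrow range in the other. Its normalized coverage in the DKSFM cells was 6.55 ± 0.84, where 1 step stood for about 2.47 reads. No fold can be given against a line listed at 0. The fitted log2 difference of 6.05 (SE 0.19, adjusted p = 3.1e-08) depends on the pseudocount, being 3.81 at 0.5 and 2.91 at 1.

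Among themselves the members followed a clear order in the DKSFM cells. *Krt32* was the highest, then *Krt79*, *Krt36*, *Krt75* and *Krt31*, and the 3 libraries of each of these genes lay above those of the next. *Krt31* in turn lay above *Krt71*, while *Krt71* was not apart from *Krt34*, and *Krt34* was not apart from the 3 genes listed at 0. All of them were low beside *Krt14* and *Krt5* of the same libraries. *Krt32* came to 0.056% of the normalized coverage of *Krt14* in the DKSFM cells, *Krt79* to 0.0221% and *Krt36* to 0.0055%. Of all tested genes, 40.2% were lower than *Krt32* in the DKSFM cells, 24.4% were lower than *Krt79* and 11.0% were lower than *Krt36*. *Krt75* and *Krt31* stood lower still, with 3.77% and 1.91% of tested genes under them.

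In the KSFM-Ca2+ cells the order was another one. *Krt36* had the highest mean there (0.590), and *Krt32* and *Krt71* followed at 0.254 and 0.123. The lowest library of *Krt36* (0.296) did not lie above the highest of *Krt32* (0.296), so that these genes were not apart, whereas every library of *Krt32* lay above those of *Krt71*.

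Summed over the 10 members, normalized coverage was 1.23, 0.691 and 1.06 in KSFM-Ca2+ replicates 1 to 3 and 23.9, 24.8 and 28.9 in DKSFM replicates 1 to 3. As a share of the coverage of all 55 keratin rows this was 0.00615%, 0.0034% and 0.00519% against 0.0494%, 0.0561% and 0.0593%. The share was thus higher in every DKSFM library, although the summed coverage of the other epithelial keratins was higher in these libraries as well. The hair shaft members alone summed to 0.996, 0.593 and 0.943 in the KSFM-Ca2+ replicates and 17.2, 18.0 and 20.5 in the DKSFM replicates. For the inner root sheath members the sums were 0.153, 0.0988 and 0.118 against 0.106, 0.0998 and 0.106, and the lines overlapped.

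Keratin genes lie in 2 clusters, and all 10 members are on the minus strand of them. The type I cluster spans chr11:99232761-100269871 with 27 keratins. From *Krt33b*, listed at 0 throughout, the gene order runs over *Krt34*, *Krt31*, *Krt32*, *Krt35* and *Krt36* to *Krt13*, *Krt15* and *Krt19*. Every gene from *Krt31* to *Krt19* in this row was higher in all DKSFM libraries than in any KSFM-Ca2+ library. Of all listed genes, 22.6% had this pattern. The ends of the stretch were set by the values. *Krt9*, the next gene after *Krt19*, was listed at 0 in each KSFM-Ca2+ replicate and at 0, 0.2 and 0.1 in DKSFM replicates 1 to 3, with overlap. *Krt35*, the hair keratin inside this row, was listed at 0.5, 0.5 and 0.7 in DKSFM replicates 1 to 3, against 0 in each KSFM-Ca2+ replicate. Next to *Krt36*, *Krt13* went from a normalized coverage of 4.57 ± 1.36 to 115 ± 22.6 and *Krt15* from 13.6 ± 3.71 to 392 ± 12.5 (log2 differences 4.64 and 4.88, adjusted p = 3.01e-07 and 5.91e-08). The inner root sheath genes sit at the other end of the cluster, where *Krt222*, *Krt24*, *Krt25*, *Krt26*, *Krt27* and *Krt28* follow each other and were all listed at 0.

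The type II cluster on chromosome 15 (chr15:101347444-102032027) also holds 27 keratins with a position matched by symbol, with the type I gene *Krt18* at its end. The type II hair keratin *Krt85* had no matched position and is left out of this order. *Krt79* is followed by *Krt78*, *Krt8* and *Krt18*, and all 4 were at or near 0 in the KSFM-Ca2+ cells and higher in each DKSFM library. This stretch was chosen by its values, and 22.6% of all listed genes were higher in every DKSFM library than in any KSFM-Ca2+ library. *Krt78* had a normalized coverage of 0.156 ± 0.0399 and 9.56 ± 1.34 (log2 difference 5.24, adjusted p = 4.81e-08). *Krt4*, on the other side of *Krt79*, had 0.131 ± 0.0615 and 0.241 ± 0.117 with overlapping libraries. *Krt75* lies between *Krt90* and *Krt6b*, both past the threshold and higher in the DKSFM cells (log2 differences 2.11 and 3.46, adjusted p = 3.11e-06 and 1.1e-08). *Krt71* lies between *Krt5*, one of the most abundant keratins, and *Krt74*, and it was listed at 0.2 or less in every library.

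**Figure D2:**
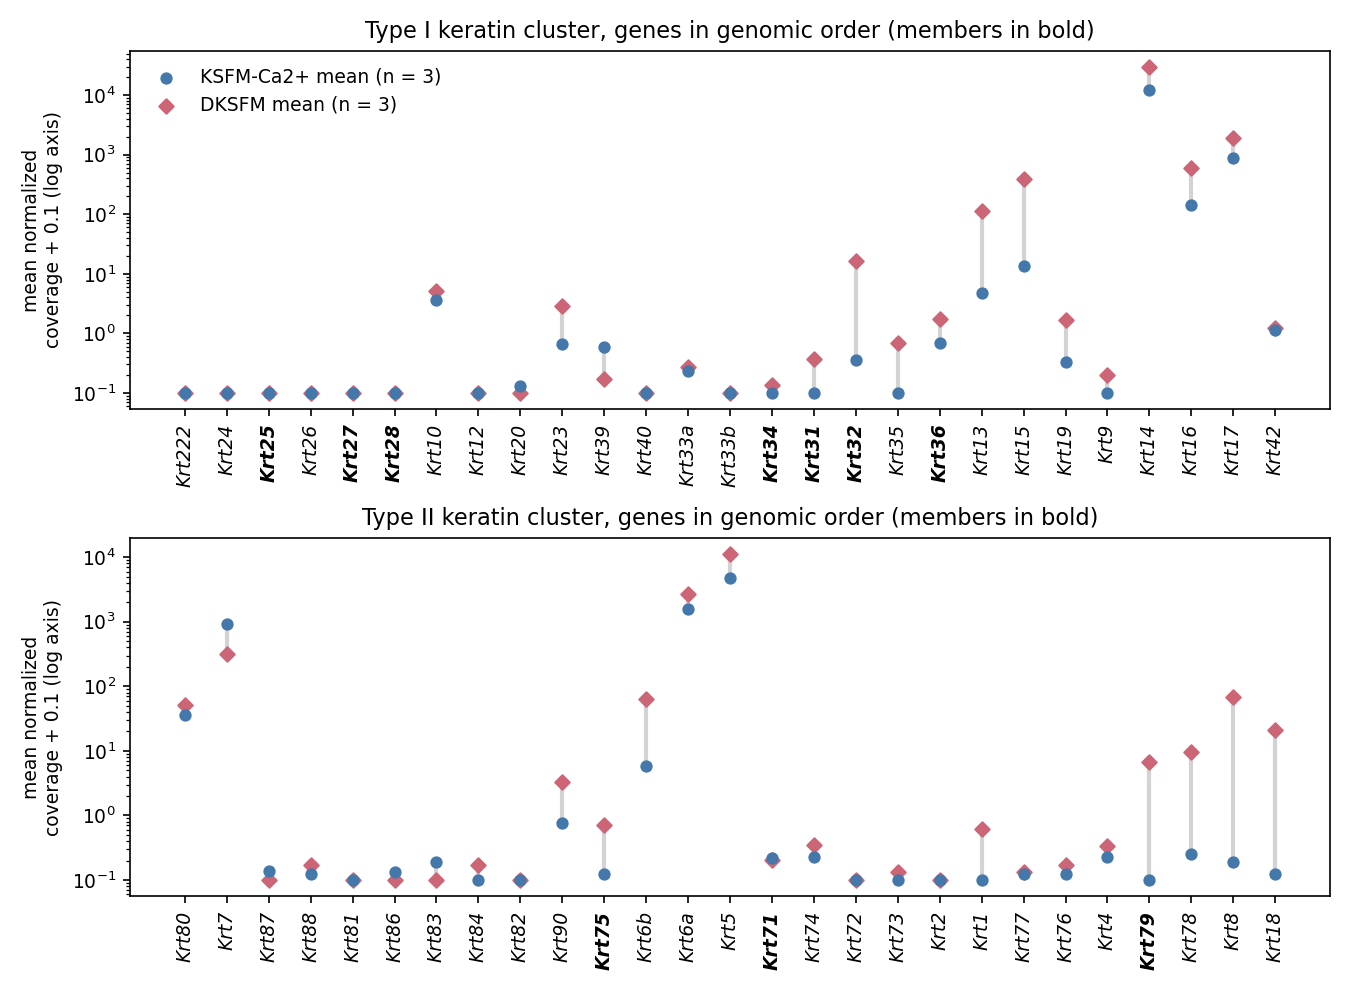
Mean normalized coverage per base plus 0.1 (log axis, n = 3 libraries per line) of the keratins with a matched position, in genomic order, in the type I cluster (top) and the type II cluster (bottom), with KSFM-Ca2+ in blue, DKSFM in red and the hair and inner root sheath keratins in bold. The stretch from *Krt31* to *Krt19* and the stretch from *Krt79* to *Krt18* have every red point above the blue point, while *Krt25*, *Krt27* and *Krt28* lie at 0 in both lines.

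The genes around the clusters were measured as well. Within 2 Mb of the type I cluster, 98 tested genes that are neither keratins nor keratin-associated proteins had a median log2 difference of -0.15, and 12 of them were higher and 11 lower on the DKSFM side. Around the type II cluster 61 such genes had a median of -0.04, with 9 higher and 5 lower. The median over all 12409 tested genes was -0.004, with 1633 higher and 1314 lower. Copy number was not measured.

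The other hair follicle keratins, a list of 16 genes that holds none of the members, gave no gene past the filter. In this list 6 genes were listed at 0 in every library, and the highest listed value was 0.7. *Krt35* had a pattern like that of *Krt31*, as given above. *Krt39*, a type I hair keratin, had the opposite pattern, with 0.4, 0.7 and 0.4 in KSFM-Ca2+ replicates 1 to 3 and 0.1, 0 and 0.1 in DKSFM replicates 1 to 3, and its groups did not overlap (log2 difference -1.81 without a filter, adjusted p = 0.00375). Hair keratins were therefore not all on the side of *Krt32*. Keratin-associated proteins, which cross-link the hair keratins in the shaft, were listed at 0 in all libraries for 53 of 54 genes. The exception was *Krtap3-2*, at 0.1, 0.2 and 0 in the KSFM-Ca2+ replicates and 0, 0.1 and 0.2 in the DKSFM replicates. The DKSFM libraries with *Krt32* thus had almost no listed coverage of these genes.

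The other epithelial keratins were higher in the DKSFM cells in 13 of 18 tested genes and lower in 1, *Krt7* (-1.54, adjusted p = 5.18e-08), and the median log2 difference was 2.07, where 13.2% of all tested genes were higher and 10.6% lower, with a median of -0.004. Of the 13 genes, *Krt8*, *Krt18*, *Krt19* and *Krt78* passed the filter through the DKSFM libraries alone and so had to be higher. Without such genes 9 of 14 were higher and 1 lower, with a median of 1.28, and without genes that passed through either line alone 9.84% of 11605 genes were higher and 8.97% lower, with a median of -0.02. The next 3 lists are read against the same shares. The largest differences after *Krt8* and *Krt18* (8.58 and 7.46) were those of *Krt78* and *Krt15*. Among 10 tested hair structural genes, 7 were higher and 2 lower, with a median of 1.67. Without *Selenbp1* and *Prr9*, which passed the filter through the DKSFM libraries alone, 5 of 8 were higher and 2 lower, with a median of 1.38. Trichohyalin (*Tchh*), a granule protein of the inner root sheath, had 1.39 ± 0.0928 in the KSFM-Ca2+ cells and 10.9 ± 1.04 in the DKSFM cells (log2 difference 2.88, adjusted p = 7.56e-08). *Selenbp1*, *Prr9* and *Vsig8* were higher as well (6.04, 2.81 and 2.52). *Padi3*, an enzyme that citrullinates trichohyalin, was lower (-2.73, adjusted p = 1.57e-06), as was the desmosomal cadherin *Dsc2* (-1.62, adjusted p = 1.94e-07). *Dsg4*, the desmosomal cadherin of the hair cortex, was listed at 0 in every library, like *Tchhl1*, *Padi1*, *Gprc5d* and *Crisp1*.

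**Figure D3:**
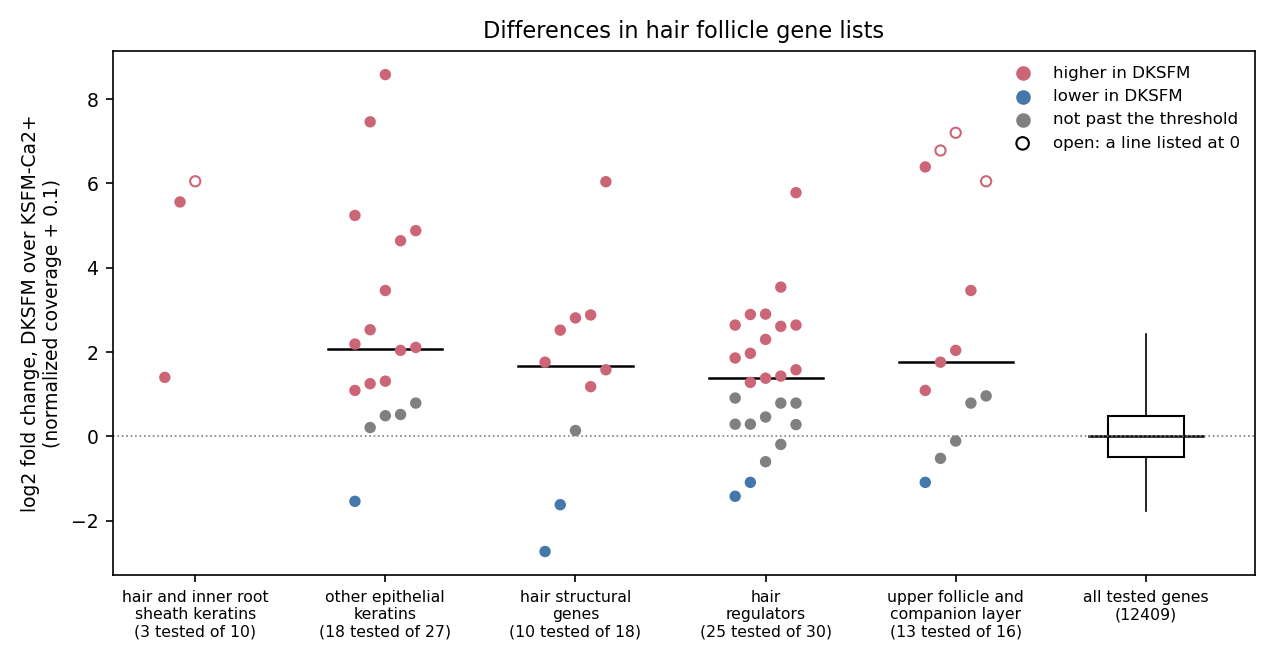
Log2 fold change, DKSFM over KSFM-Ca2+, on the scale of normalized coverage plus 0.1, for the tested genes of each list. Red points are higher and blue points lower in the DKSFM cells past the threshold, and grey points are not past it. Open points have a cell line listed at 0. Black lines are list medians, drawn for every list but the members. The box shows the median and quartiles of all 12409 tested genes and its whiskers the 5th and 95th percentiles (-1.76 and 2.44), and the members *Krt32* and *Krt79* lie above that range.

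Of 25 tested regulators of the hair follicle, DKSFM cells had 14 higher and 2 lower, and the median log2 difference was 1.38. Without *Dlx3*, *Foxe1*, *Egr2* and *Edar*, which passed the filter through the DKSFM libraries alone, 10 of 21 were higher and 2 lower, with a median of 0.91. The forkhead factor *Foxq1*, known from a mouse hair mutant, had 0.89 ± 0.183 and 53.8 ± 2.02 (log2 difference 5.78, adjusted p = 6.66e-09). *Trps1*, *Foxe1* and *Dlx3*, transcription factors of the follicle, were higher by 3.54, 2.90 and 2.89 (adjusted p = 9.17e-09, 5.64e-05 and 7.72e-05). *Msx1* and *Gata6* were lower (-1.42 and -1.09, adjusted p = 3.97e-06 and 1.26e-05). Named outside the rule and after their values were seen, the hair keratin activators *Foxn1* and *Hoxc13* had log2 differences of 1.38 (adjusted p = 1.82e-05) and -0.60 (adjusted p = 0.000717, under 2-fold), and *Lef1*, *Msx2*, *Shh* and *Wnt10b* were listed at 0 in all 6 libraries. The genes of the upper follicle and companion layer, a list that includes *Krt75* and *Krt79* and shares *Krt6a*, *Krt6b*, *Krt16* and *Krt17* with the epithelial keratins, were higher in 8 of 13 tested genes and lower in 1, *Gata6*, with a median of 1.76. Without *Krt79*, *Ptn* and *Sostdc1*, which passed the filter through the DKSFM libraries alone, 5 of 10 were higher and 1 lower, with a median of 1.02. *Klk10* had the largest difference among genes seen in both lines (6.39, adjusted p = 2.2e-08). Like *Krt79*, *Ptn* and *Sostdc1* were listed at 0 in all KSFM-Ca2+ libraries, and they had 14.6 ± 0.0873 and 10.9 ± 0.603 in the DKSFM cells. At an unadjusted limma p under 0.05, 10 of the 13 tested genes of this list were higher and 3 lower. Named after their values were seen, *Plet1* and *Lrig1* had log2 differences of -0.52 (adjusted p = 4.91e-06) and -0.11 (adjusted p = 0.0486), both under 2-fold. *Lgr6* was listed at 0 in all 6 libraries.

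Markers of other cell types of the skin were measured in the same libraries as *Krt32* and *Krt79*. Of the 8 fibroblast markers, *Col1a1*, *Col1a2*, *Col3a1*, *Lum*, *Dcn* and *Thy1* were listed at 0 in all 6 libraries. *Pdgfra* was the most abundant, and the list summed to 1.15, 0.889 and 1.30 in the KSFM-Ca2+ replicates and 2.33, 2.20 and 2.22 in the DKSFM replicates. The 8 dermal papilla markers, with *Corin*, *Hhip*, *Rspo3* and *Sox18* at 0 and *Sox2* the most abundant, summed to 4.67, 4.35 and 3.18 against 8.06, 8.29 and 7.52. Among 8 melanocyte markers *Dct*, *Tyr* and *Kit* were at 0, and the sums of 4.14, 3.95 and 4.60 against 17.3, 18.8 and 18.3 were mostly *Mitf*, which passed the threshold (log2 difference 2.31, adjusted p = 1.48e-07). In the fit without a filter *Pmel*, *Mlana* and *Tyrp1* had log2 differences of -0.66, -0.52 and -0.11 and *Sox10* 0.33, none past the threshold. The 8 sebocyte markers, with *Mc5r*, *Pparg* and *Awat1* at 0 and *Fabp5* the most abundant over the 6 libraries, summed to 902, 928 and 815 against 1028, 1108 and 1009. Their tested genes went both ways, with log2 differences of 0.67 for *Mgst1*, 0.26 for *Fabp5*, 0.34 for *Awat2* and -0.71 for *Plin2*. The 6 Merkel cell markers, with *Atoh1*, *Piezo2* and *Chga* at 0 and *Sox2* the most abundant, summed to 5.59, 5.14 and 3.54 against 8.70, 8.68 and 8.05. The 4 endothelial markers, with *Cdh5* and *Tie1* at 0, summed to 2.68, 2.77 and 3.06 against 8.06, 8.19 and 7.10, mostly *Pecam1* (1.41, adjusted p = 3.88e-06). The 5 immune markers, with *Cd3e* at 0, summed to 1.30, 1.58 and 2.0 against 0, 0.20 and 0, mostly *Cd74*, which was lower and listed at 0 in the DKSFM cells and passed the filter through the KSFM-Ca2+ libraries alone. Of the fibroblast, dermal papilla, sebocyte and Merkel cell lists only 1, 1, 4 and 2 genes were tested, with *Sox2* in both the second and the last. None of these was past the threshold, and 1, 1, 3 and 1 had an unadjusted p under 0.05. The part of these genes in the levels of the hair keratins was not tested.

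The genes whose profiles over the 6 libraries were most like those of the 3 most abundant members were found by the root mean square distance between mean-centred log2 values, among 12408 other tested genes. Nearest to *Krt32* were *Myh14* (distance 0.121), *Rps4l* (0.137) and *Col6a1* (0.142). *Myh14*, a non-muscle myosin heavy chain, had 1.57 ± 0.0388 in the KSFM-Ca2+ cells and 76.1 ± 2.67 in the DKSFM cells. Nearest to *Krt79* were *Papss2* (0.137), *Apcdd1* (0.137) and *BC064078* (0.143). *Apcdd1*, a membrane inhibitor of Wnt signalling, had 0.78 ± 0.0684 and 63.1 ± 0.664. Nearest to *Krt36* were *Rhbg* (0.145), *Npm2* (0.174) and *E030011O05Rik* (0.193), which like *Krt36* had their lowest value in KSFM-Ca2+ replicate 2. No keratin was among the 9 nearest genes. With 6 libraries in 2 groups, genes with a like step between the lines come out as nearest.

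**Figure D4:**
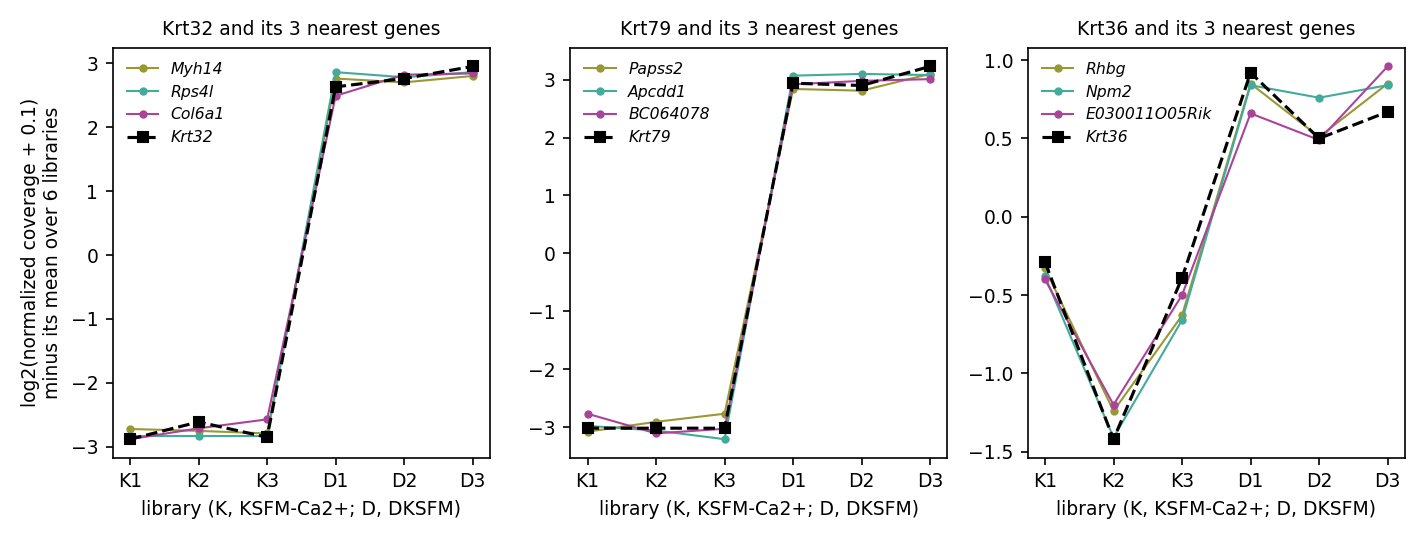
Profiles of *Krt32*, *Krt79* and *Krt36* (black squares, dashed) and of the 3 genes nearest to each (coloured lines) over KSFM-Ca2+ replicates 1 to 3 (K) and DKSFM replicates 1 to 3 (D), as log2(normalized coverage + 0.1) minus its mean over the 6 libraries. *Krt32* and *Krt79* form a flat low and a flat high group, whereas *Krt36* has a smaller step and a dip in KSFM-Ca2+ replicate 2.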

How the data were processed

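The authors made directional poly(A) libraries and used STAR for alignment to mm10, RefSeq as gene models, Salmon for quantification and DESeq2 for their own comparison, and bcl2fastq is also named in the submitters' processing notes. The deposited signal is the mean read coverage per base of each gene, to 1 decimal and not scaled to library size; how coverage was computed, and what the word combined in 4 file names means, is not given in the sources used here. Groups and replicate numbers came from the sample titles. Coverage is not a count, so no count model was fitted.

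Scaling used a trimmed mean of M values without weights (30% of M and 5% of A trimmed), with factors of 0.9919 to 1.011 on library totals. The filter kept genes with 3 or more libraries at a normalized coverage of 0.5 or more (fewer where libraries were left out, as many as the smaller group has). These were tested as log2(normalized coverage + 0.1) with limma and an intensity trend, with 3 KSFM-Ca2+ against 3 DKSFM libraries, no covariate and Benjamini-Hochberg adjustment over 12409 genes. The procedure was tested on simulated data. The changed genes in them were drawn only from levels above the KSFM-Ca2+ mean of every member. Recovery of changes at the low levels of the members was therefore not tested. The software was limma 3.58.1 in R 4.3.3, and Python 3.11.15 with matplotlib 3.10.9. Positions are from GENCODE M21 (GRCm38, the build of mm10), matched by symbol for 24490 of 24982 genes. Promoters are from RefSeq (GRCm38.p6), matched for 10 of 10 members. Read equivalents of a step were approximated from the median RefSeq transcript length and the read length, and windows of read length were compared with all GENCODE transcripts.

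All 10 members are named. From each list, called genes are counted, and up to 4 in each direction are named by absolute log2 difference among called genes without overlap between the lines, or up to 3 of the most abundant where none is called. The 3 nearest profiles are named for the 3 most abundant members, and keratins beside a member may be named, as may genes that passed the filter through 1 line alone; list counts and medians without the latter were added after the values were seen. Other hair keratins and upper follicle genes without a call, regulators listed at 0 and marker genes were named after their values were seen. Members and lists were chosen with earlier results of these data known. Alternatives were other scalings (relative log expression, library totals, quantile normalization), no filter or 1 that every library must pass, a pseudocount of 0.5 or 1, no trend, a replicate block, an adjusted p of 0.05, leaving out each library, and the combined libraries only.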

Additional observations from a re-analysis of the deposited data

How the results depend on the processing

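*Krt32* and *Krt79* kept their direction and stayed past the threshold under the 16 alternatives that test them, with log2 differences of 3.81 to 5.65 (adjusted p of 1.5e-09 to 0.000284) and 2.91 to 6.11 (1.22e-08 to 0.000323). The highest adjusted p of both is from the combined libraries only, where the lone KSFM-Ca2+ library is assumed to vary like the DKSFM libraries. *Krt36* kept its direction under 16 alternatives and its call under 10 of them (1.04 to 1.59, adjusted p of 0.00154 to 0.00991); in the other 6 the difference was 0.74 to 1.41 (adjusted p of 0.00101 to 0.0181). Without a filter, 5 members were past the threshold and higher in the DKSFM cells in place of 3, since 7 were tested and *Krt31* and *Krt75* were added. *Krt75* was also past it in 5 fits with fewer libraries (the combined ones, without DKSFM replicate 1 and without each KSFM-Ca2+ replicate), but passed their filter through the DKSFM libraries alone and so had to differ; *Krt36* was not past the threshold in 2 of these. A filter on every library tests no member and left 1028 genes higher in the DKSFM cells in place of 1633, since genes near 0 in one line are removed. The balance of all calls turned under quantile normalization, with 1461 genes higher and 1486 lower in the DKSFM cells in place of 1633 and 1314. No pairing by replicate number was seen, with same-numbered deviations correlated at -0.005, 0.024 and -0.006. The labels do not say whether samples were paired. With a replicate block the 3 members stayed past the threshold (*Krt36* 1.40, adjusted p = 0.00154). All values of *Krt31*, *Krt34*, *Krt71* and the genes listed at 0, and the KSFM-Ca2+ values of *Krt32*, *Krt75* and *Krt79*, lie within 3 steps of 0 and are limited by the 0.1 step.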
